A study of Salmo salar with 48 samples.

Results

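A stretch of 407 bp on Atlantic salmon (Salmo salar) chromosome 16 that is rich in CpG dinucleotides carried almost no cytosine methylation in the liver. It comprises the 23 CpGs at positions 37941696 to 37942102 of the reference sequence NC_027315.1, taken by their position, out of 107 CpGs that had calls in every fish of the study. The amplicon mean over all 48 fish was 0.539% ± 0.0541 (SD, n = 48), and the highest of the 1104 single values was 2.21%. Its gene is not named, since the only gene table used here is of Ssal_v3.1, another assembly than this reference sequence. Of its sequence, only the base that follows each CpG was used here.

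In vertebrates most cytosines that are followed by guanine carry a methyl group, which DNA methyltransferases copy onto the new strand after replication. Stretches that are dense in CpGs are a known exception. They often lie at the start of genes, where they stay unmethylated in most tissues, and methylation there is usually linked with a silent gene. Bisulfite turns unmethylated cytosine into uracil, read as T, and leaves 5-methylcytosine as C, so a level is given below as the percentage of reads with C at the CpG.

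The livers came from 48 juvenile fish of a commercial broodstock (St. John River strain) in 6 groups of 8. Warm hypoxic fish (WH) were brought to 70% air saturation and then warmed from 12 to 20 °C by 1 °C per week. Warm normoxic fish (WN) had the same warming at 100% air saturation, and control fish (CT) stayed at 12 °C and 100% air saturation. Both warmed treatments were sampled at 4 weeks and at 3 days of exposure at 20 °C, and the controls carry the same 2 time labels. WH fish came from tanks T1 and T6, WN fish from T2 and T5 and CT fish from T3 and T4, with 4 fish per tank and time. The fish were 23 males and 25 females. Males were 2 and 5 of 8 in WH fish at 4 weeks and 3 days, 5 and 4 in WN fish, and 5 and 2 in CT fish. All groups were of the same stock. Because each treatment had its own 2 tanks, treatment and tank cannot be fully told apart, and the p-values below measure the spread between fish. The calls analysed here lie in 7 regions, which hold no marker by which the liver label could be checked.

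The median fish had 10434.5 reads per CpG in the amplicon, and the fish ranged from 561 (WN fish 90 at 3 days) to 87260 (WN fish 102 at 4 weeks). Group medians were 8020 and 10757 reads in WH fish at 4 weeks and 3 days, 20277 and 6985 in WN fish, and 11054 and 14271 in CT fish. Every CpG of every fish had at least 550 reads, far above the minimum of 30 that was set for using a value. In all, 86865 of 15982650 calls were methylated. Reads of a PCR amplicon are not separate molecules, so counting intervals and limits cover counting error only. Unconverted cytosines are read as methylated and belong to these levels, and their share was not measured.

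The amplicon was the densest of the 7 regions in CpGs. It held 5.65 CpGs per 100 bp, against 2.83 to 4.58 in the other regions. Neighbouring CpGs lay between 3 bp (CpGs 22 and 23, numbered in order of position) and 51 bp (CpGs 7 and 8) apart. The base after the CpG was A at 9 CpGs, T at 5, G at 5 and C at 4. Mean levels by context were 0.504% for CGA, 0.579% for CGT, 0.578% for CGG and 0.522% for CGC. Single CpGs ranged from 0.289% to 0.849% in CGA and from 0.389% to 0.961% in CGT. The ranges were 0.373% to 1.14% in CGG and 0.392% to 0.738% in CGC. The contexts overlapped, and their differences were not tested.

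Within the same fish the amplicon was compared with 5 other regions. Their depth differed, with a median of 436 reads per CpG (lowest fish 160) in the region on chromosome 3, against 10434.5 here. The second region on chromosome 4 had a median of 25179 reads but 59 in its lowest fish. The amplicon was lower than a region on chromosome 3 (13688232 to 13688647) in 43 of 48 fish, at 0.539% against 0.692%, a mean difference of -0.153 percentage points with an SD of 0.163 over fish. It was lower in all 48 fish than a region on chromosome 14 (33502562 to 33502977), which stood at 1.36%. The intermediate region on chromosome 4 (35435825 to 35436217), at 26.6%, and the methylated one on chromosome 9, at 92.3%, were also higher in all 48 fish. In each of these 4 comparisons the sign-flip permutation p was 1e-05, the smallest that 100000 resamples can give (two-sided, adjusted p = 1.25e-05 over 5 comparisons). For the regions at 26.6% and 92.3% the levels lie so far apart that the test could not come out otherwise. The closest region was the second one on chromosome 4 (44947109 to 44947524), at 0.505% ± 0.140 (SD, n = 48). The amplicon was higher there in 32 of 48 fish by a mean of 0.0347 points, which missed the threshold (permutation p = 0.0952, adjusted p = 0.0952). Without the first and the last CpG of each region this difference was 0.0477 points and passed it (permutation, adjusted p = 0.0404).

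The levels were not even along the amplicon. The 3 highest means stood close to each other in its middle, at CpGs 9, 11 and 13, and all other CpGs except CpG 2 had means between 0.289% and 0.555%. CpG 13 (37941956) was highest, at 1.14% ± 0.209 (SD, n = 48), with a lowest fish of 0.771%, a median of 1.10% and a highest of 1.87%. It exceeded the amplicon mean of its own fish in 48 of 48 fish and ranked first of 23 in all 6 groups. In single fish it was the highest of the 23 CpGs in 21 of 48. CpG 11 (37941919) followed with 0.961% ± 0.327, from 0.345% through a median of 0.961% to 2.21%, above the mean of its own fish in 47 of 48. CpG 9 (37941873) had 0.849% ± 0.289, from 0.442% through 0.751% to 1.80%, and exceeded it in 45 of 48. The CpGs between these 3 had lower means. CpG 10, 15 bp after CpG 9, averaged 0.459% ± 0.283, and CpG 12, 7 bp after CpG 11, averaged 0.555% ± 0.221 (SD, n = 48 each).

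**Figure D1:**
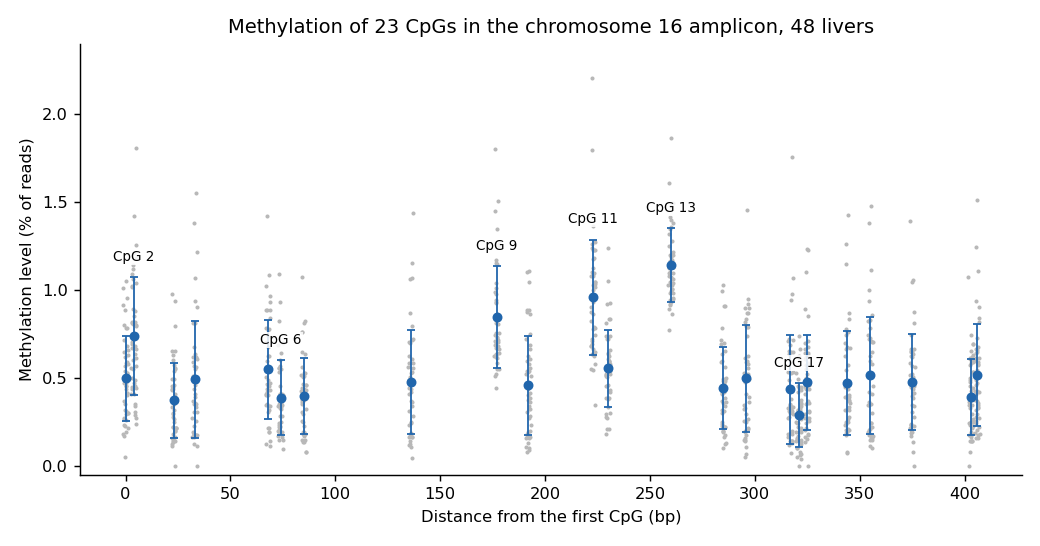
Methylation level (% of reads, vertical axis) of each of the 23 CpGs against its distance from the first CpG in bp (horizontal axis); small grey points are the 48 fish and blue points with bars are the mean ± SD. CpGs 9, 11 and 13 stand above the rest with means of 0.849%, 0.961% and 1.14%, while CpGs 10 and 12 between them stay at 0.459% and 0.555%.

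CpG 2 (37941700), near the start of the amplicon, had the fourth highest mean, at 0.738% ± 0.334 (SD, n = 48), and exceeded the mean of its own fish in 34 of 48. At the low end, CpG 17 (37942017) averaged 0.289% ± 0.182, CpG 3 (37941719) 0.373% ± 0.215 and CpG 6 (37941770) 0.389% ± 0.211 (SD, n = 48 each). CpG 17 was last of 23 in 4 of the 6 groups, and its neighbours CpG 16 and CpG 18, each 4 bp away, averaged 0.437% and 0.476%. A value of 0 occurred 6 times, 5 of them in WN fish 90 and 1 in WN fish 91, where 3 counts of the reads allow up to 0.236% to 0.542%. CpG 17, the lowest, was at 0 in 1 of 48 fish.

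Calls were not quite equally frequent along the reads. CpG 11 had 98.6% of the calls of the deepest CpG in the same fish, CpG 9 had 98.8% and CpG 13 had 99.3%, against 99.97% at CpG 10 and 99.8% at CpG 12. The fewest calls fell on CpG 14, with 98.2%, and its level was 0.442%. Over the 23 CpGs the Spearman correlation of level with this share was -0.16 and with distance from the first CpG -0.09, given as descriptions of CpGs that share their reads. The part of the call share in the 3 highest levels was not tested.

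The profile was compared between groups. The Pearson correlation of the 23 mean levels between any 2 of the 6 groups lay between 0.66 and 0.90, with a median of 0.83 over 15 pairs. The rank correlation lay between 0.31 and 0.85, with a median of 0.52. Of the sum of squares of all 1104 levels, the identity of the CpG accounted for 34.7% and the fish for 2.59%, of which 0.153% lay between groups. The group-specific part of the CpG profile made up 7.12% on 110 degrees of freedom, and the remaining scatter of single CpGs in single fish 55.6% on 924. Per degree of freedom these were 0.0647% and 0.0602%.

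The scatter of single CpGs over all 48 fish, group differences included, was larger than read counting gives. The SD of a CpG over fish was between 1.52 times (CpG 13) and 3.68 times (CpG 4) the SD expected from a binomial count of its reads, with a median of 2.96. At CpG 4 the spread of 0.332 points matched a binomial count of 446 reads. The fish had from 564 through a median of 10478 to 87508 reads there. The expected SD averaged the counting variance over fish, so it is not the SD at the median depth. CpG 13 was the highest and yet the nearest to counting error, with a spread that matched 2581 reads. The median SD of a CpG was 0.270 points in the 24 fish with the most reads (at least 10631 per CpG) and 0.253 points in the other 24 fish, and it was smaller in the deeper fish at 11 of 23 CpGs.

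**Figure D2:**
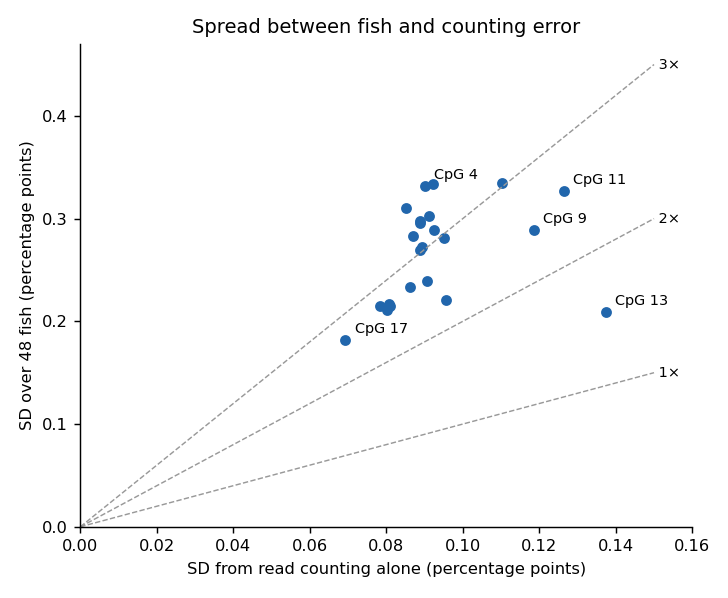
Standard deviation of each CpG over the 48 fish against the SD that a binomial count of the reads alone would give, both in percentage points; dashed lines mark 1, 2 and 3 times the counting SD and each point is 1 CpG. All 23 points lie above the line of equality, CpG 13 nearest to it at 1.52 times and CpG 4 farthest at 3.68 times.

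Levels at different CpGs showed little common variation over fish. The correlation between 2 CpGs over the 48 fish had a median of 0.00112 over 253 pairs, with 127 pairs above 0 and a range from -0.37 to 0.44. The 22 pairs of neighbours had a median of -0.04. CpGs 22 and 23 lie 3 bp apart on the same reads and had r = -0.26, while CpGs 1 and 2, 4 bp apart, had r = 0.20. The highest value, 0.44, belonged to CpGs 19 and 23, at 62 bp. If the 23 CpGs varied separately, their mean would have an SD of 0.0567 points over fish, and the observed SD was 0.0541. The ratio of these 2 SDs was 0.955 here, against 0.940 and 1.02 in the other low regions (the second on chromosome 4, and chromosome 3), 1.63 on chromosome 14, 1.95 on chromosome 9 and 3.44 in the intermediate region of chromosome 4. These ratios are descriptions, and their differences were not tested.

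At 4 weeks the question was whether warming, with or without lowered oxygen, moved the amplicon away from the level of control livers. The amplicon mean ran from 0.469% through a median of 0.550% to 0.639% in WH fish, from 0.437% through 0.534% to 0.658% in WN fish and from 0.433% through 0.521% to 0.584% in CT fish. The 3 ranges overlapped over most of their length. WN fish averaged 0.543% ± 0.0742 and CT fish 0.519% ± 0.0516 (SD, n = 8 each), so that WN fish stood 0.0238 points higher (95% bounds -0.0449 and 0.0929, p = 0.467 by exact permutation, 0.760 when adjusted over 6 regions). For WH fish, at 0.555% ± 0.0522, the difference from CT fish was 0.0360 points (95% interval -0.0199 to 0.0920, exact permutation adjusted p = 0.347). WH fish differed from WN fish by 0.0121 points (95% interval -0.0569 to 0.0812, exact permutation p = 0.708, adjusted p = 0.708).

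After 3 days the order of the groups was another one, again within the spread of the fish. The mean ran from 0.444% through 0.508% to 0.632% in WH fish, from 0.493% through 0.549% to 0.620% in WN fish and from 0.469% through 0.537% to 0.595% in CT fish. WH fish averaged 0.529% ± 0.0671 and CT fish 0.536% ± 0.0409 (SD, n = 8 each), which gives WH minus CT as -0.00723 points (95% bounds -0.0670 and 0.0531, exact permutation p = 0.795, adjusted p = 0.804). WN fish, at 0.554% ± 0.0380 (SD, n = 8), exceeded CT fish by 0.0182 points (95% interval -0.0241 to 0.0609, exact permutation p = 0.371, adjusted p = 0.901). Between WH and WN fish the difference was -0.0254 points (95% interval -0.0837 to 0.0333, exact permutation p = 0.356, adjusted p = 0.418). A dependence of the treatments' differences on time was not detected either (F = 0.715, permutation p = 0.491, adjusted p = 0.686 over 6 regions).

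**Figure D3:**
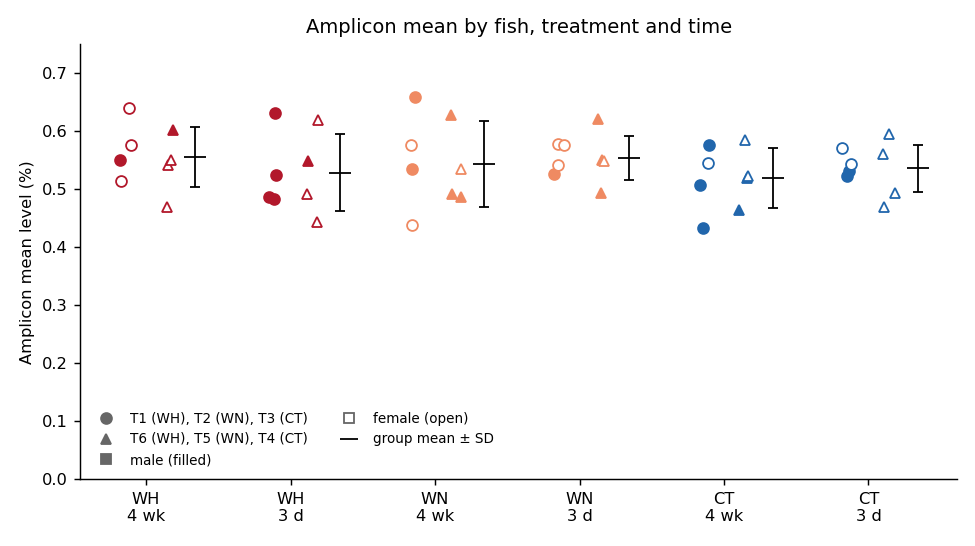
Mean level of the 23 CpGs (%, vertical axis from 0) in each of the 48 fish, by treatment and time; circles and triangles are the 2 tanks of a treatment, filled symbols males, open symbols females, and black bars the group mean ± SD (n = 8). All fish lie between 0.433% and 0.658%, and the ranges of the 6 groups overlap.

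Single CpGs were tested over all 94 CpGs of 6 regions. At 4 weeks 0 of the 23 CpGs passed the adjusted threshold of 0.05 between WH and CT fish in the exact permutation test, and 0% of the 94 did. At an unadjusted p under 0.05 there was 1 of 23, against 2.13% of all CpGs tested. This was CpG 2, which ran from 0.559% through a median of 0.834% to 1.42% in WH fish and from 0.238% through 0.558% to 0.891% in CT fish. The 2 groups overlapped between 0.559% and 0.891%, and the difference was 0.355 points (SE 0.134, n = 8 each, exact permutation p = 0.0193, adjusted p = 0.866). A higher mean in WH fish was found at 14 of the 23 CpGs and a lower one at 9, with a median difference of 0.0200 points against -0.0501 over all 94. Here and below, the 94 include these 23 CpGs and regions at 26.6% and 92.3%. The means of those 2 regions had SDs of 4.78 and 1.17 points over fish, against 0.0541 here. The 2 medians are therefore not on the same scale.

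Between WN and CT fish at 4 weeks, 0 of 23 CpGs passed the adjusted threshold, as did 0% of all, and 1 had an unadjusted p under 0.05, against 4.26% of all. CpG 8 (37941832) ran from 0.126% through 0.715% to 1.44% in WN fish and from 0.108% through 0.352% to 0.700% in CT fish. The lowest fish of both groups were close to each other, and WN fish reached higher values. Means were 0.740% ± 0.394 in WN fish and 0.349% ± 0.212 in CT fish (SD, n = 8 each), which differ by 0.390 points (exact permutation p = 0.0249, adjusted p = 0.584). Between WH and WN fish 0 of 23 passed, with 0% of all, and 0 of 23 had an unadjusted p under 0.05, against 3.19% of all. The smallest p there belonged to CpG 18 (37942021), with 0.529% ± 0.330 in WH and 0.316% ± 0.141 in WN fish (SD, n = 8 each, exact permutation p = 0.0999, adjusted p = 0.906). Means were higher in WN than in CT fish at 10 CpGs and lower at 13, with a median difference of -0.00430 points against 0.0342 over all 94, so the median and the difference of amplicon means had opposite signs. The same held for WH against WN fish, with 11 higher and 12 lower and a median of -0.00936 points against -0.120 over all 94.

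**Figure D4:**
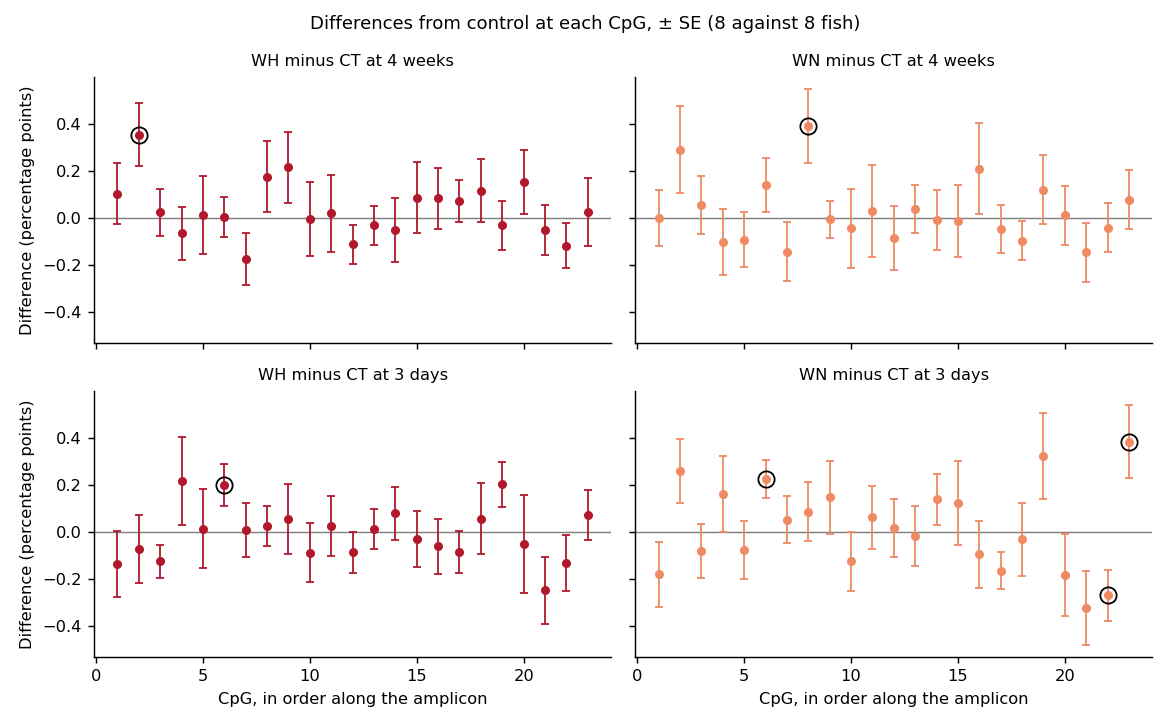
Difference from control fish (percentage points, vertical axis) at each of the 23 CpGs in their order along the amplicon, for WH (left) and WN fish (right) at 4 weeks (top) and 3 days (bottom); points are differences of group means, bars ± SE (8 against 8 fish), and circles mark an unadjusted exact permutation p under 0.05. Differences lie on both sides of 0 in every panel, and the 6 circled ones have adjusted p-values of 0.368 to 0.866.

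At 3 days the CpG with the smallest p in both warmed groups was CpG 6 (37941770), one of the 3 lowest of the amplicon. It ran from 0.0987% through a median of 0.454% to 0.822% in WH fish, from 0.197% through 0.409% to 0.930% in WN fish and from 0.172% through 0.269% to 0.335% in CT fish. The range of CT fish lay inside that of WH fish and overlapped the lower end of that of WN fish, and both warmed groups reached higher values. WH fish averaged 0.454% ± 0.243 and CT fish 0.256% ± 0.0634 (SD, n = 8 each), so WH fish were 0.199 points higher (exact permutation p = 0.0437, adjusted p = 0.586). When fish were permuted within sex or weighted by their reads, 0 of 23 CpGs had an unadjusted p under 0.05 between WH and CT fish. The share of all CpGs with such a p under these settings is not given here. WN fish averaged 0.479% ± 0.219 (SD, n = 8), which put them 0.223 points above CT fish (exact permutation p = 0.00482, adjusted p = 0.368). These 2 differences share the same control fish. At 4 weeks CpG 6 had 0.340% ± 0.179 in WH, 0.475% ± 0.283 in WN and 0.333% ± 0.160 in CT fish (SD, n = 8 each).

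In the comparison of WH with CT fish at 3 days, 0 of 23 CpGs passed the adjusted threshold, with 0% of all 94, and CpG 6 was the 1 of 23 with an unadjusted p under 0.05, against 7.45% of all. WN fish differed from CT fish with an unadjusted p under 0.05 at 3 of 23 CpGs, against 7.45% of all, and 0 of 23 and 0% of all passed the adjusted threshold. The other 2 were the last CpGs of the amplicon, whose differences had opposite signs. CpG 22 (37942099) ran from 0 through 0.233% to 0.489% in WN fish and from 0.144% through 0.464% to 1.07% in CT fish, and WN minus CT was -0.270 points (SE 0.109, n = 8 each, exact permutation p = 0.0171, adjusted p = 0.368). CpG 23 (37942102), 3 bp further on, ran from 0.360% through 0.718% to 1.52% in WN fish and from 0.242% through 0.360% to 0.726% in CT fish, and WN minus CT was 0.383 points (SE 0.155, n = 8 each, exact permutation p = 0.0200, adjusted p = 0.368). At both CpGs the groups overlapped. The 0 at CpG 22 was WN fish 90, the shallowest, with 560 reads, where 3 counts allow up to 0.536%. The same fish had 1.25% at CpG 23. Over the 23 CpGs, WH fish were higher than CT fish at 12 and lower at 11, with a median difference of 0.00735 points, opposite in sign to that of the amplicon means, against -0.0572 over all 94. WN fish were likewise higher than CT fish at 12 and lower at 11, with a median of 0.0161 points against 0.0790 over all 94.

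WH and WN fish at 3 days gave 0 of 23 CpGs past the adjusted threshold, with 0% of all, and 1 of 23 with an unadjusted p under 0.05, against 5.32% of all. This was again CpG 2, which ran from 0.307% through 0.466% to 1.09% in WH fish and from 0.449% through 0.949% to 1.18% in WN fish (-0.334 points, exact permutation p = 0.0207, adjusted p = 0.721). WH fish were higher at 11 of 23 CpGs and lower at 12, with a median difference of -0.0245 points against -0.0482 over all 94. Its group means at 3 days were 0.572% in WH, 0.907% in WN and 0.647% in CT fish. At 4 weeks they were 0.907% in WH, 0.843% in WN and 0.552% in CT fish.

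**Figure D5:**
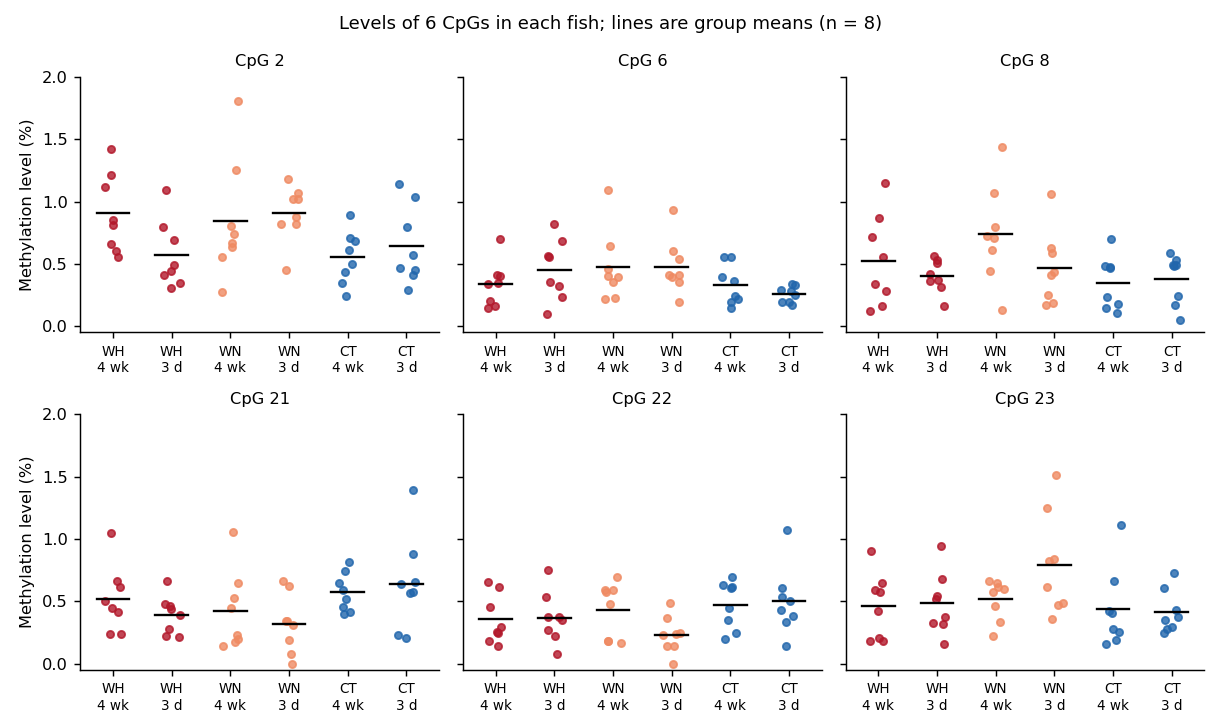
Methylation level (%) of CpGs 2, 6, 8, 21, 22 and 23 in every fish by treatment and time; points are fish and black lines group means (n = 8). The groups overlap at each of these CpGs, and at CpG 6 the 8 control fish of 3 days lie close together between 0.172% and 0.335%.

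Other tests of the same comparisons called no CpG of the amplicon. In limma on log-scaled M-values 0 of 23 passed in each of the 9 comparisons of treatments and times, with 0 to 5 at an unadjusted p under 0.05. With a random block for tank, 0 passed and 0 to 7 had such a p, and with fish weighted by their reads, 0 passed and 0 to 3 had one. The 5 and 7 belong to WN against CT fish at 3 days, where the lowest adjusted p in limma was 0.522 and with the tank block 0.291. The shares of all CpGs with such a p under these tests are not given here. Whether the counts are particular to the amplicon was therefore not tested. In every comparison between treatments the lowest adjusted p was smaller with the tank block than without. The block was therefore not the stricter test for treatments.

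Between 4 weeks and 3 days the fish of each treatment were different animals from the same 2 tanks. Their sexes differed too, with 2 males of 8 WH fish at 4 weeks and 5 at 3 days. Males were 5 and 4 in WN fish and 5 and 2 in CT fish. The main test did not hold sex, so time and sex cannot be fully told apart, here and at single CpGs. The amplicon mean differed by 0.0266 points in WH fish (0.555% at 4 weeks and 0.529% at 3 days, 95% interval -0.0386 to 0.0913, exact permutation p = 0.385, adjusted p = 0.462). In WN fish the difference was -0.0110 points (0.543% and 0.554%, 95% interval -0.0741 to 0.0521, exact permutation p = 0.715, adjusted p = 0.962). In CT fish, which show time without warming, it was -0.0166 points (0.519% and 0.536%, 95% interval -0.0670 to 0.0334, exact permutation p = 0.485, adjusted p = 0.713).

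Between 4 weeks and 3 days, means were higher at 12 CpGs and lower at 11 in WH fish (median difference 0.0246 points, against 0.0703 over all 94). They were higher at 10 and lower at 13 in WN fish (-0.0173 against 0.0598) and higher at 9 and lower at 14 in CT fish (-0.0238 against 0.0583). In none of the 3 treatments did a CpG of the amplicon pass the adjusted threshold between the times, 0 of 23 each, as did 0% of all CpGs in each. Unadjusted p-values under 0.05 occurred at 1 of 23 in WH fish, against 7.45% of all, and at 0 of 23 in WN and in CT fish, against 3.19% of all in each. In WH fish this was CpG 2, at 0.907% ± 0.314 at 4 weeks and 0.572% ± 0.269 at 3 days (SD, n = 8 each), which differ by 0.334 points (SE 0.146, exact permutation p = 0.0398, adjusted p = 0.557). Its values ran from 0.559% to 1.42% at 4 weeks and from 0.307% to 1.09% at 3 days. The smallest p in WN fish belonged to CpG 22, with 0.431% ± 0.219 at 4 weeks and 0.230% ± 0.148 at 3 days (SD, n = 8 each, exact permutation p = 0.0531, adjusted p = 0.840). In CT fish it belonged to CpG 20 (37942051), with 0.382% ± 0.203 at 4 weeks and 0.672% ± 0.406 at 3 days (SD, n = 8 each, exact permutation p = 0.0903, adjusted p = 0.924).

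Male and female livers had nearly the same amplicon mean, 0.538% ± 0.0581 (SD, n = 23) in males and 0.541% ± 0.0514 (SD, n = 25) in females. Within groups, which sets aside the unequal sex numbers between groups, males were 0.00163 points higher. The 95% interval was -0.0335 to 0.0370 (permutation within groups, p = 0.926, adjusted p = 0.926). Sex was also unequal between the tanks of a group. At 3 days all 4 fish of T1 (WH) were males and all 4 of T4 (CT) were females. Sex and tank can therefore not be fully told apart, in the amplicon mean or at single CpGs. At single CpGs 0 of 23 passed the adjusted threshold, with 0% of all, and 1 had an unadjusted p under 0.05, against 4.26% of all. CpG 21 (37942071) ran from 0 through 0.387% to 0.814% in males and from 0.0796% through 0.571% to 1.39% in females. The 0 was WN fish 90, with 554 reads, where 3 counts allow up to 0.542%. The sexes overlapped widely, and within groups males were lower by a difference of -0.169 points (permutation p = 0.0304, adjusted p = 0.952).

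The 2 tanks of a treatment could be compared because each was sampled at both times. The sexes were unequal between them, with 5 males of 8 fish in T1 and 2 in T6. Males were 3 of 8 in T2 and 6 in T5, and 5 in T3 and 2 in T4. The test held time but not sex, so tank and sex cannot be fully told apart, here and at single CpGs. Tank T1 averaged 0.551% ± 0.0605 and tank T6 0.533% ± 0.0616 in WH fish, a difference of 0.0181 points (95% interval -0.0488 to 0.0856). Tank T2 averaged 0.553% ± 0.0624 and T5 0.544% ± 0.0555 in WN fish, a difference of 0.00925 points (95% interval -0.0548 to 0.0760). Tank T3 averaged 0.529% ± 0.0449 and T4 0.526% ± 0.0497 in CT fish, a difference of 0.00255 points (95% interval -0.0508 to 0.0548, SD, n = 8 fish per tank throughout). The exact permutation p-values within times were 0.563, 0.758 and 0.916 for WH, WN and CT fish, and the adjusted ones 0.904, 0.900 and 0.919.

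Across tanks 0 of 23 CpGs passed the adjusted threshold in each treatment, with 0% of all in each. An unadjusted p under 0.05 occurred at 1 of 23 in WH fish, which was also the only 1 of all 94 (1.06%). In WN and CT fish it occurred at 0 of 23, against 5.32% and 2.13% of all. CpG 1 (37941696), the first of the amplicon, had 0.626% ± 0.216 in tank T1 and 0.408% ± 0.151 in tank T6 (SD, n = 8 each, exact permutation p = 0.0363, adjusted p = 0.992). The smallest p in WN fish was at CpG 10 (37941888), with 0.300% ± 0.179 in T2 and 0.536% ± 0.358 in T5 (SD, n = 8 each, exact permutation p = 0.124, adjusted p = 0.993). CpG 20 had the smallest in CT fish, with 0.388% ± 0.308 in T3 and 0.666% ± 0.340 in T4 (SD, n = 8 each, exact permutation p = 0.0812, adjusted p = 0.993).

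Over the 48 fish the amplicon mean was set beside its own depth and beside the mean levels of 3 other regions, and none of the 4 relations passed the threshold. With the amplicon's reads per CpG on a log10 scale its Pearson r was 0.06 and its Spearman rho 0.13 (permutation p = 0.710 and 0.364, adjusted p = 0.710 and 0.568 over 4 relations), and r was 0.15 without the 2 fish farthest from the median depth. With the mean level of the second region of chromosome 4, the most alike in level, r was 0.18 and rho 0.20 (permutation p = 0.224 and 0.170, adjusted p = 0.710 and 0.568), and r was 0.23 without the 2 farthest fish. The r with the region of chromosome 3 was -0.11 with a rho of -0.12 (permutation p = 0.464 and 0.426, adjusted p = 0.710 and 0.568), and with that of chromosome 14 it was 0.08 with a rho of -0.06 (permutation p = 0.612 and 0.661, adjusted p = 0.710 and 0.661). Without the 2 farthest fish these r values were -0.25 and -0.07. Within the 6 tanks of 8 fish the r with depth ranged from -0.31 to 0.61, that with the second region of chromosome 4 from -0.48 to 0.59, that with chromosome 3 from -0.55 to 0.52 and that with chromosome 14 from -0.37 to 0.58, so none of the 4 relations held one sign in all tanks. The fish-level scatter of single CpGs around their means had r = -0.19 with depth, a relation looked at after the data were seen (rho = -0.09, permutation p = 0.194 and 0.530). That r was -0.10 without the 2 farthest fish and lay between -0.52 and 0.12 within tanks.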

How the data were processed

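Liver DNA of 48 fish was bisulfite-converted, amplified and sequenced on an Illumina instrument, per the labels' protocols. Per the submitters' processing notes the authors used Bismark 0.20.0 with Bowtie2, and Trim Galore 0.4.4 and MultiQC 1.9. The genome build, settings, duplicate handling and conversion rate are not given in the sources used here. What the authors deposited are whole-number counts of methylated and unmethylated calls per CpG, per the file headers, without normalization. The amplicon held no calls on the minus strand.

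Levels are 100 times methylated over all calls, used at 30 or more reads. Tests were run over all 94 CpGs that reached 30 reads in 6 or more of every group's fish, or over 6 region means (CpGs with 30 reads in at least 40 fish), with fish weighted equally. Treatment and time comparisons used all 12870 splits of 16 fish (two-sided, smallest p 0.000155). Tank comparisons used 4900 arrangements within times. Sex, treatment by time, and relations used 100000 resamples, and in the sex test missing values at CpGs of other regions were set to their group mean. Benjamini-Hochberg adjustment ran over the CpGs or the regions of a comparison, with a threshold of 0.05, and 95% intervals hold the shifts that the test did not reject. Named CpGs are the 3 highest and 3 lowest means and, per comparison, those with an unadjusted p under 0.05 (at most 3) or the 1 with the smallest p; CpGs 4, 7, 12, 14, 16 and 19 fall outside this rule and are mentioned for their position, spread, call share, pair correlation or a fish that stood apart, chosen after their values were seen. The amplicon, lists and tests were chosen with earlier results of these data known. Alternatives were minimums of 10 and 100 reads, read weights, limma on M-values, log2((methylated + 1)/(unmethylated + 1)), with and without a tank block, each tank left out, permutation within sex or tanks, pooled reads, and leaving out the end CpGs; leaving out fish 90 was added after the data were seen. The exact test was tried on simulated data for WH against CT fish at 4 weeks, over CpGs of several regions together. It does not show what change could be found in this amplicon. Python 3.11.15, numpy 2.4.6, scipy 1.17.1, R 4.3.3 and limma 3.58.1 were used.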

Additional observations from a re-analysis of the deposited data

Results flagged for a closer look

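In 144 sets of 8 fish (23 CpGs and the amplicon mean in 6 groups), 9 held a fish that stood apart from the other 7 by Dixon's criterion (critical value 0.526). For normally distributed values chance alone would give about 7.2. These levels lie near the lower bound of a percentage and all 9 flags were high values, so that number is only a guide. The amplicon mean was not among the 9 sets. In each case the fish was the highest of its group, and intervals are 95% Wilson intervals of counting error. In WN fish of 4 weeks, fish 104 had 2.21% (2.02 to 2.41%) at CpG 11, against 1.23% in the next fish, and 1.76% (1.59 to 1.95%) at CpG 16, against 0.716%. Fish 101 of that group had 1.07% (0.947 to 1.21%) at CpG 4, against 0.462%, and fish 114 had 0.640% (0.537 to 0.763%) at CpG 18, against 0.358%. In WN fish of 3 days, fish 89 had 1.87% (1.60 to 2.17%) at CpG 13, against 1.17%, and fish 90 had 0.885% (0.379 to 2.05%) at CpG 10 from 565 reads, against 0.438%. In WH fish of 4 weeks, fish 100 had 0.700% (0.520 to 0.942%) at CpG 6, against 0.409%, and fish 99 had 1.24% (1.09 to 1.41%) at CpG 18, against 0.665%. In CT fish of 3 days, fish 81 had 1.23% (1.07 to 1.42%) at CpG 18, against 0.645%.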

How the results depend on the processing

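None of the 90 repeats of the CpG tests under other settings called a CpG of the amplicon (lowest adjusted p 0.190), and in none did a region mean pass between treatments or times (lowest adjusted p 0.311). All 112 repeats of the named CpGs kept their direction. These CpGs were picked for their small p in the same fish, so their direction was likely to hold. Those repeats are no independent check. Signs near 0 turned in 6 cases, all with adjusted p of 0.776 or more. For WN against CT fish at 4 weeks the difference was -0.00578 in log2 units of M in limma, both without and with the tank block; without tank T1, WH minus WN fish at 4 weeks was -0.00260 points; weighted by reads, WN minus CT fish at 3 days was -0.00193 points; without the end CpGs, male minus female was -0.00530 points and tank T3 minus T4 was -0.00846 points. Against the second region of chromosome 4 the difference without the end CpGs was 0.0477 points and passed the threshold. No pairing of fish between times or treatments was possible because each fish has its own number. Without WN fish 90, the shallowest, 0 of 23 CpGs passed in the 3 comparisons that held it. An unadjusted exact permutation p under 0.05 remained at 3 of 23 between WN and CT fish at 3 days. There was 1 of 23 between WH and WN fish at 3 days and 1 of 23 between the times in WN fish. The shares of all CpGs without this fish are not given here. Every single level rests on at least 550 reads.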
